A study of Mus musculus with 6 samples.

Results

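Small leucine-rich proteoglycans and the adhesive and matricellular glycoproteins of the extracellular matrix were examined in the lungs of leptin-deficient mice given leptin, set against such mice given saline. The group was fixed by name as 10 genes, Dcn, Lum, Bgn, Fmod and Ogn of the small leucine-rich family and Fn1, Tnc, Sparc, Postn and Thbs1 of the glycoproteins. All probe sets that the platform's annotation gives to 1 of these symbols were taken, which made 21 of 22626 probe sets and 10 of 12393 genes. The 6 arrays (Affymetrix Mouse 430A) came from 3 leptin-treated and 3 saline-treated animals. Every animal was a female of the strain B6.V-Lepob/J, about 1 month old, and carried the ob mutation of the leptin gene (ob/ob), so both groups lack leptin of their own and no wild-type lung was compared. Each label gives 1 tissue from 1 animal. How much leptin was given, by which route and for how long is not stated in the labels.

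Small leucine-rich proteoglycans are secreted proteins that sit on collagen fibrils, set how fibrils pack and bind growth factors such as TGF-beta. Matricellular proteins are secreted into the matrix but act mostly as signals to cells, through integrins and other receptors, and many are made in quantity when lung tissue grows or is repaired. In the lung both kinds are made largely by fibroblasts, smooth muscle and endothelium, and they lie in the alveolar septa and around airways and vessels.

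Saline replicate 1 stood apart from the other 5 arrays and was kept apart in the main comparison. Its log2 values correlated with those of the other arrays at 0.438 to 0.447 (Pearson's r over all probe sets; these are no independent replicates), against 0.973 to 0.978 among the other 5. Its 18 hybridisation control probe sets read a median 29.8-fold above the other arrays, and the 3' to 5' signal ratio of beta-actin was 5.83, against 1.09 to 1.25 elsewhere, while that of Gapdh went the other way, at 0.396 against 0.956 to 1.25. One probe set of the Y-linked gene Uty read 1108.1 on it and 12.7 to 67.3 on the others, although the labels give females. Xist, which is transcribed from the inactive X chromosome of females, was present there too, but its probe sets did not agree. On 1 probe set saline replicate 1 read 7896, against 3398 to 3646 on the leptin arrays and 2697 and 3025 on the other saline arrays. On another it read 578.0, below the 1055.2 to 1553.0 of the other 5 arrays. A further Xist probe set read 275.6 on it and 122.3 to 260.3 on the others. On the other 5 arrays the lung markers Sftpc and Scgb1a1 read 23964 to 29732 and 18473 to 22288. Differences below are log2 values of leptin minus saline on these 5 arrays (3 leptin, 2 saline), with the difference over all 6 arrays given for each of the 10 genes, and saline values are those of replicates 2 and 3 unless replicate 1 is named. Values are intensities.

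No member passed the adjusted threshold. With saline replicate 1 left out, limma called 0 of the 18 tested member probe sets (adjusted p = 0.999 to 1.00), against 7 of 15838 probe sets on the whole array, a share of 0.0442%. The replicate numbers may pair the animals, and with the number as a block the 7 calls became 0 and members stayed at 0. At an unadjusted p under 0.05, 1 member probe set, that of Lum, was higher with leptin and 0 were lower, where 2.61% of all tested probe sets were higher and 1.98% lower. On all 6 arrays limma called 0 members and 0 of 15838 probe sets (0.0%), with 61 probe sets at an unadjusted p under 0.05, among them 1 member probe set, again that of Lum. The rule stated by the series asks for a 1.5-fold change, p under 0.05 and that fold in a set share of the pairwise comparisons. That share came to 4 of 6 comparisons on the 5 arrays and 6 of 9 on all 6. On the 5 arrays the rule was met by 0 members, against 0.492% of all tested probe sets.

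The members leaned to one side without passing the test. Of the 18 tested probe sets 17 had a higher mean with leptin and 1 a lower one. In 6 of them, or 33.3%, every leptin array read above both saline arrays. These were the probe sets of Lum, Tnc and Postn, both of Sparc and the lower-mean one of Fn1. Some gaps were narrow. The lowest leptin and highest saline arrays read 145.4 and 145.0 for Fn1, and 11401 and 11330, and 16138 and 15911, for Sparc. Over the whole array 9.92% of tested probe sets were separated in this way, and 9.66% in the opposite way, which held for 0 members. The 10 genes, each by its highest-mean probe set, had a median difference of 0.18, with 9 higher and 1 lower. All 9365 genes tested had a median of -0.01, with 48.4% higher. The members and lists were picked with earlier results of these data known, so these counts describe the genes and carry no test.

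**Figure D1:**
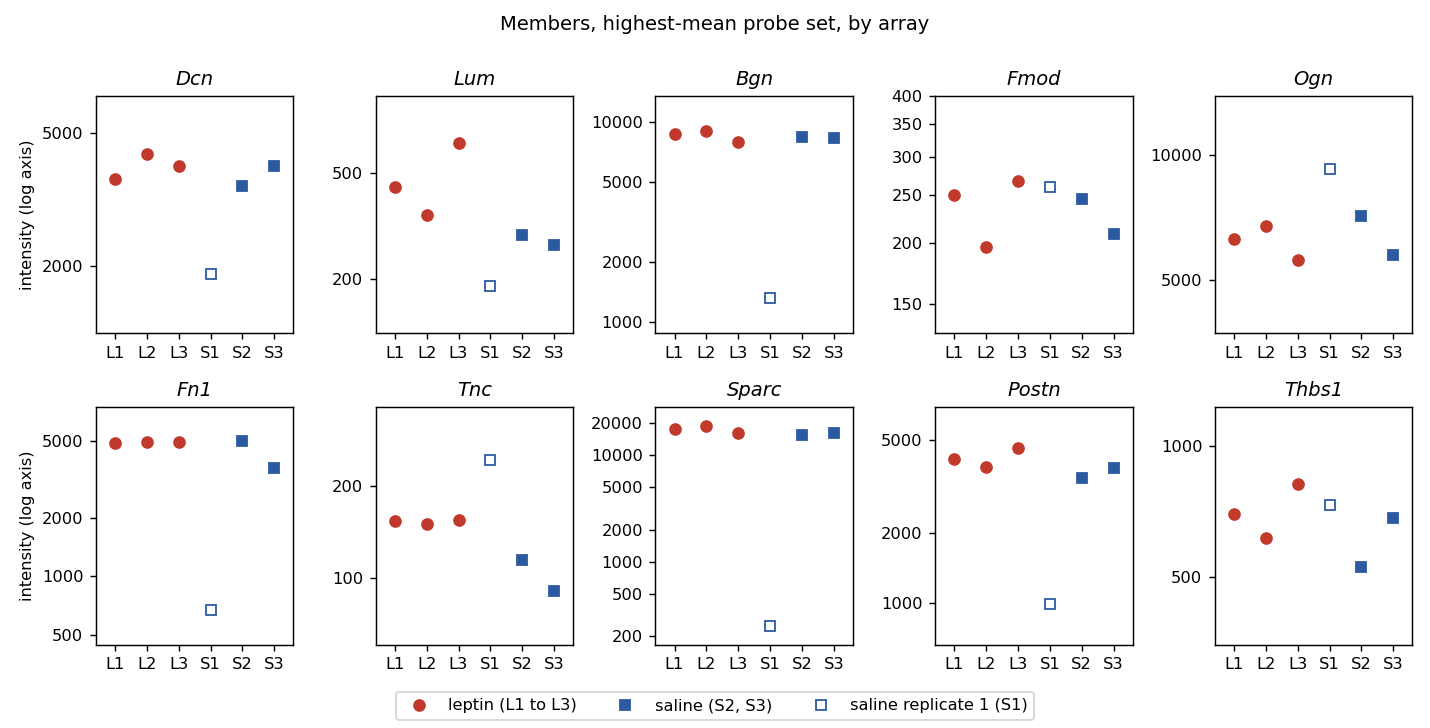
Intensity (log axis, each panel with its own range) of the highest-mean tested probe set of each member on the leptin arrays (L1 to L3, filled circles), saline replicate 1 (S1, open square) and saline replicates 2 and 3 (S2, S3, filled squares). Lum, Tnc, Sparc and Postn read higher on all 3 leptin arrays than on S2 and S3, and Sparc on S1 lies far below every other array, at 252.4.

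Among the small leucine-rich genes, Lum had the greatest difference. Lum (Entrez Gene 17022) encodes lumican, a keratan sulfate proteoglycan that governs the spacing of collagen fibrils. It read 439.9, 347.3 and 646.6 on the leptin arrays, a mean of 478 ± 153 (SD, n = 3), and 293.1 and 269.1 with saline. The groups did not overlap, but leptin replicate 3 alone lay far above the rest, and the leptin arrays differed more among themselves than leptin replicate 2 did from saline. The log2 difference was 0.68 ± 0.23 (SE), a 1.60-fold difference with a 95% interval of 1.13 to 2.28 (limma unadjusted p = 0.0134, adjusted p = 0.999). Without leptin replicate 3 it was 0.45. Saline replicate 1 read 188.1, lower still, and with it the difference was 0.85 ± 0.33 (limma unadjusted p = 0.0391, adjusted p = 0.715). Lum was the 1 member that met the series' rule on all 6 arrays, with 1.5-fold in 6 of 9 pairwise comparisons, where 0.202% of all probe sets met it.

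Dcn (13179) encodes decorin, the collagen-binding proteoglycan that holds TGF-beta in the matrix. It read 3634, 4302 and 3975 with leptin and 3457 and 3970 with saline. The groups overlapped, and the difference was 0.10 ± 0.13, with a 95% interval of -0.18 to 0.37. With saline replicate 1, at 1880, it was 0.42 ± 0.40. In the RefSeq gene table (assembly GRCm38.p6) Dcn and Lum are direct neighbours on chromosome 10, followed by Kera and Epyc, which also encode small leucine-rich proteoglycans. The probe sets of Kera and Epyc lay below the filter on low values, at 6.6 to 62.7 on the 5 arrays and at 572.5 and 93.2 on saline replicate 1. The adjacent Dcn and Lum thus differed in the size of their estimates, 0.10 and 0.68, though the difference between them was not tested.

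Bgn (12111), on the X chromosome, encodes biglycan, the nearest relative of decorin, which binds collagen and, when released, Toll-like receptors. Its 3 probe sets gave differences of 0.03 ± 0.11, 0.15 ± 0.12 and 0.02 ± 0.14, and the groups overlapped in each. The highest-mean one read 8733, 9030 and 7960 with leptin and 8456 and 8270 with saline, so the leptin arrays lay on both sides of the saline ones. Its interval, 0.870-fold to 1.21-fold, leaves out a 1.5-fold difference in either direction, as do those of the other 2 Bgn probe sets, which reach from 0.815-fold to 1.33-fold. Saline replicate 1 read 1178 to 1484 on the 3 probe sets, and over all 6 arrays the differences were 0.92 ± 0.79, 0.94 ± 0.74 and 0.90 ± 0.79, so these rest on that array.

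Ogn (18295) encodes osteoglycin, also called mimecan, a small leucine-rich protein first found in bone. Its 2 probe sets went opposite ways. The highest-mean one read 6295, 6738 and 5603 with leptin and 7149 and 5751 with saline, a difference of -0.05 ± 0.13. The other read 5254, 5218 and 4066 with leptin and 4246 and 4158 with saline, a difference of 0.20 ± 0.14. The groups overlapped in both. Over all 6 arrays the differences were -0.22 ± 0.42 and 0.80 ± 0.57. Ogn lies on chromosome 13 in a row with Ecm2, Aspn and Omd, and of these neighbours Omd read 198.0, 182.3 and 132.6 with leptin and 230.8 and 131.9 with saline, a difference of -0.05, whereas Aspn was at 0.27 ± 0.19, with 243.8, 224.2 and 289.7 with leptin and 189.0 and 221.0 with saline.

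Fmod (14264) encodes fibromodulin, which binds fibrillar collagen and steers its crosslinking. It had 6 probe sets, 5 of them of the kind marked x, whose probes can also bind other sequences, and 3 lay below the filter. The tested 3 gave 0.05 ± 0.20, 0.07 ± 0.20 and 0.28 ± 0.25, with overlapping groups. The highest-mean one read 251.1, 195.5 and 267.2 with leptin and 245.5 and 208.8 with saline. The interval of this probe set, 0.767-fold to 1.41-fold, leaves out 1.5-fold in either direction, as does that of the second, 0.767-fold to 1.43-fold. That of the third, 0.829-fold to 1.77-fold, takes in a 1.5-fold rise. Over all 6 arrays the 3 differences were -0.01 ± 0.27, -0.02 ± 0.28 and -0.33 ± 0.57. Of the untested 3, one ranged from 10.2 to 72.9 over the 5 arrays. Another read 117.8, 87.5 and 107.7 with leptin and 82.2 and 57.5 with saline, without overlap. Prelp, next to Fmod on chromosome 1 and a member of the same protein family, read 4519, 4368 and 4520 with leptin and 3785 and 4124 with saline, a difference of 0.18 ± 0.11 (limma unadjusted p = 0.141).

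**Figure D2:**
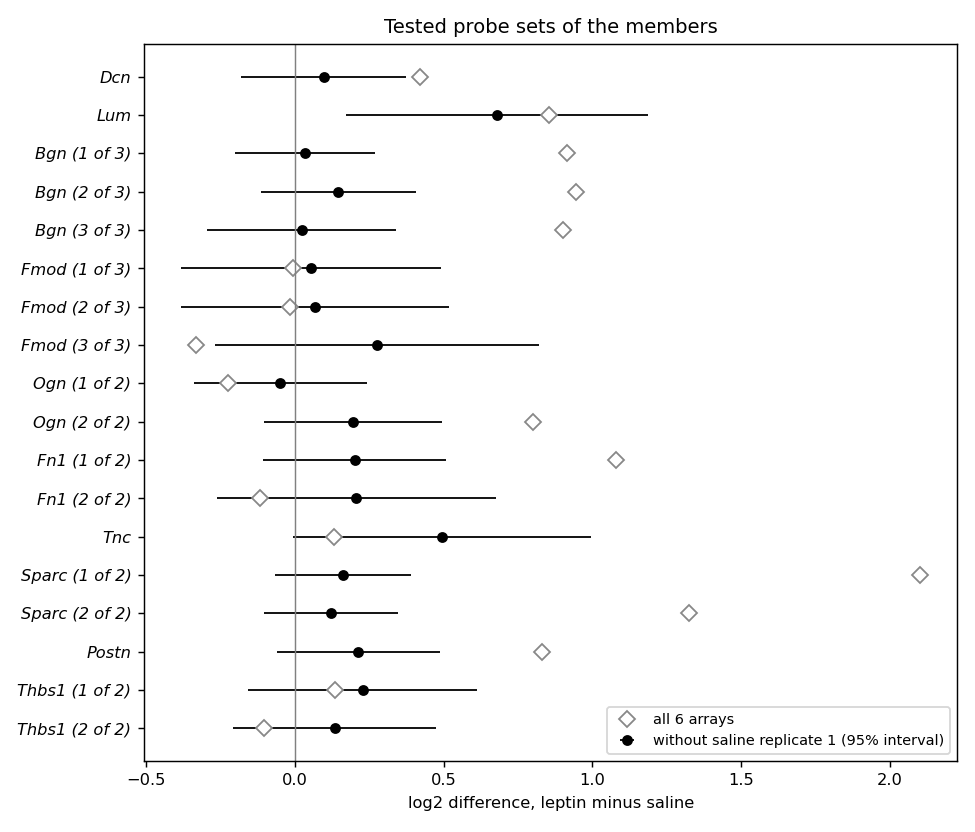
Log2 difference, leptin minus saline, of the 18 tested probe sets of the members (filled circles with 95% intervals, 3 leptin and 2 saline arrays) and the same over all 6 arrays (open diamonds). The interval of Lum lies above 0, at 0.17 to 1.19, and with saline replicate 1 included Sparc moves to 2.10 and 1.32.

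The glycoproteins had a median difference of 0.21, against 0.05 for the small leucine-rich genes, each by the highest-mean probe set of its 5 genes. Tnc (21923) encodes tenascin-C, a large matricellular protein of growing and injured tissue. It read 154.1, 150.4 and 154.4 with leptin, 153 ± 2.23 (SD, n = 3), and 114.9 and 90.6 with saline. The leptin arrays lay close together and above both saline arrays. The difference was 0.49 ± 0.23, or 1.41-fold with a 95% interval of 0.996 to 1.99 (limma unadjusted p = 0.0524, adjusted p = 1.00). It stayed between 0.35 and 0.64 when any 1 of the 5 arrays was left out. These are dim readings, below the medians of 220.8 to 238.4 on the 5 arrays, and with the 50% filter Tnc was not tested. On saline replicate 1 Tnc read 243.3, above every leptin array, and the difference over all 6 arrays was 0.13 ± 0.40.

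Postn (50706) encodes periostin, which binds collagen, fibronectin and tenascin-C and is raised by TGF-beta in many fibroblasts. It read 4148, 3853 and 4643 with leptin and 3455 and 3797 with saline. The lowest leptin array exceeded the highest saline array by little, and the difference was 0.21 ± 0.12 (limma unadjusted p = 0.115, adjusted p = 1.00). With saline replicate 1, at 988.9, it was 0.83 ± 0.57.

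Sparc (20692) encodes osteonectin, a collagen-binding protein that guides collagen out of the cell and into fibrils. Its probe sets read 17373, 18815 and 16138 with leptin and 15211 and 15911 with saline, and 11401, 12234 and 11650 with leptin and 11330 and 10327 with saline. Neither overlapped, and the differences were small, at 0.16 ± 0.10 and 0.12 ± 0.10. Their intervals end at 1.31-fold and 1.27-fold, below the 1.5-fold of the series' rule. Sparc depended most on saline replicate 1, where the probe sets read 252.4 and 864.3. With that array the differences were 2.10 ± 1.60 and 1.32 ± 1.03, so the 6-array value is set by 1 array.

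Fn1 (14268) encodes fibronectin, the adhesive glycoprotein that integrins bind and that starts fibril assembly. By its highest-mean probe set it stood at 4851, 4922 and 4939 with leptin and 4991 and 3641 with saline. The 3 leptin arrays were nearly equal and fell between the saline arrays, so the difference of 0.20 ± 0.14 rested on saline replicate 3. Without that array it was -0.03, and without saline replicate 2 it was 0.43. The second probe set had 181.5, 145.4 and 170.5 with leptin and 145.0 and 135.7 with saline, a difference of 0.21 ± 0.21. Saline replicate 1 read 668.2 and 295.9, and over all 6 arrays the differences were 1.08 ± 0.76 and -0.12 ± 0.37.

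Thbs1 (21825) encodes thrombospondin-1, released by platelets and many stromal cells, which activates latent TGF-beta and binds CD36 and CD47. It read 699.8, 616.1 and 818.7 with leptin and 527.0 and 684.2 with saline on one probe set, and 449.7, 407.7 and 479.7 with leptin and 408.8 and 398.2 with saline on the other. The groups overlapped on both, with differences of 0.23 ± 0.17 and 0.13 ± 0.15, and 0.13 ± 0.26 and -0.10 ± 0.29 over all 6 arrays. Leptin replicate 3 read highest on both, as it did for Lum and Postn.

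**Figure D3:**
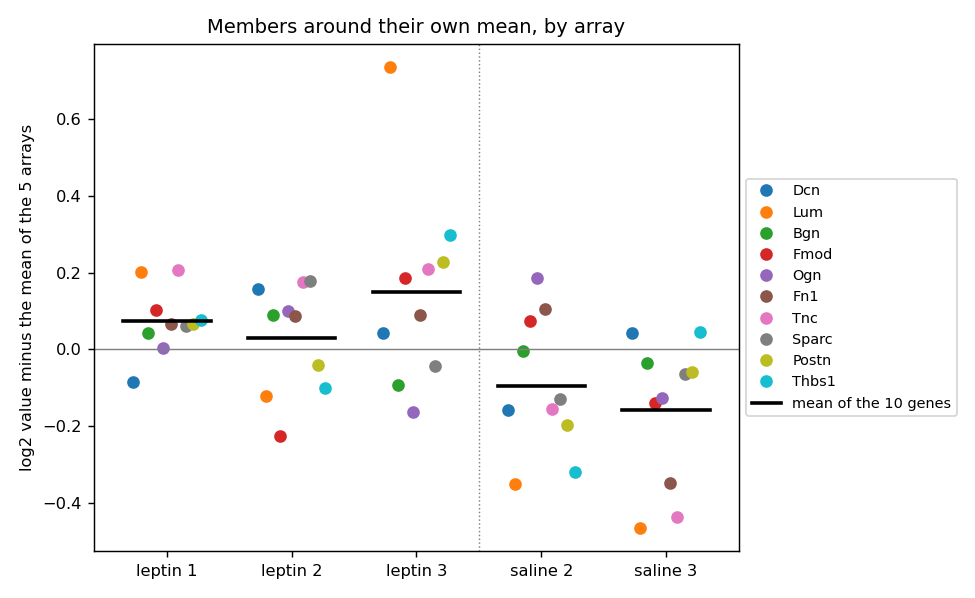
Log2 value of each member's highest-mean probe set minus its own mean over 5 arrays (points, 1 colour per gene) and the mean of the 10 genes (bars) for leptin replicates 1 to 3 and saline replicates 2 and 3. The bars lie at 0.07, 0.03 and 0.15 on the leptin arrays and at -0.09 and -0.16 on the saline arrays, while single genes fall on both sides of 0 on 4 of the arrays and all but Dcn lie above it on leptin replicate 1.

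The members differed in their profiles over the arrays. Each gene is followed here by its highest-mean probe set unless another is named. Leptin replicate 3 had the highest mean over the 10 genes, 0.15 above the genes' own 5-array means, yet Sparc, Bgn and Ogn lay below theirs on it. The other Bgn probe sets went otherwise, and read highest of the 5 arrays on leptin replicate 3, at 9259 and 9022. The other Sparc probe set read 11650 there, within a range of 10327 to 12234 over the 5 arrays. On leptin replicate 1, 9 of 10 genes lay above their mean, on leptin replicate 2 there were 6, on leptin replicate 3 there were 7, and on saline replicates 2 and 3 there were 3 and 2. By highest-mean probe sets, the spread within groups was widest for Lum, with a pooled SD of 0.36 on the log2 scale. It was narrow for Bgn and Sparc, at 0.08 and 0.09. The other Bgn probe sets were at 0.13 and 0.21, that of Sparc at 0.07, and the untested Fmod ones at 0.22, 0.41 and 0.71. The mean profile of the members spanned 0.31. Of 7050 other genes with at least that range, those closest to it over the 5 arrays were Cd74, Septin6, Alkbh4, Sox17 and Afg3l2, at a root mean square distance of 0.016 to 0.036 on the log2 scale. With 5 arrays many genes can lie this near.

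On saline replicate 1 the members split. Of the 21 probe sets 12 read below the mean of the other 5 arrays and 9 above it. Sparc was 66.1-fold and 13.2-fold lower, Fn1 6.99-fold lower on its highest-mean probe set, Bgn 5.68-fold to 6.44-fold, Postn 4.02-fold, Lum 2.12-fold and Dcn 2.06-fold lower. Tnc was 1.83-fold higher, the lower-mean Fn1 probe set 1.90-fold, and 1 Fmod probe set 6.67-fold. The 2 Ogn probe sets were parted on this array, one 1.47-fold above its mean on the other 5 arrays and one 3.90-fold below. The 10th percentile of intensity there was 57.1, against 16.4 to 19.3 on the other arrays. What part array quality had in these values was not tested.

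**Figure D4:**
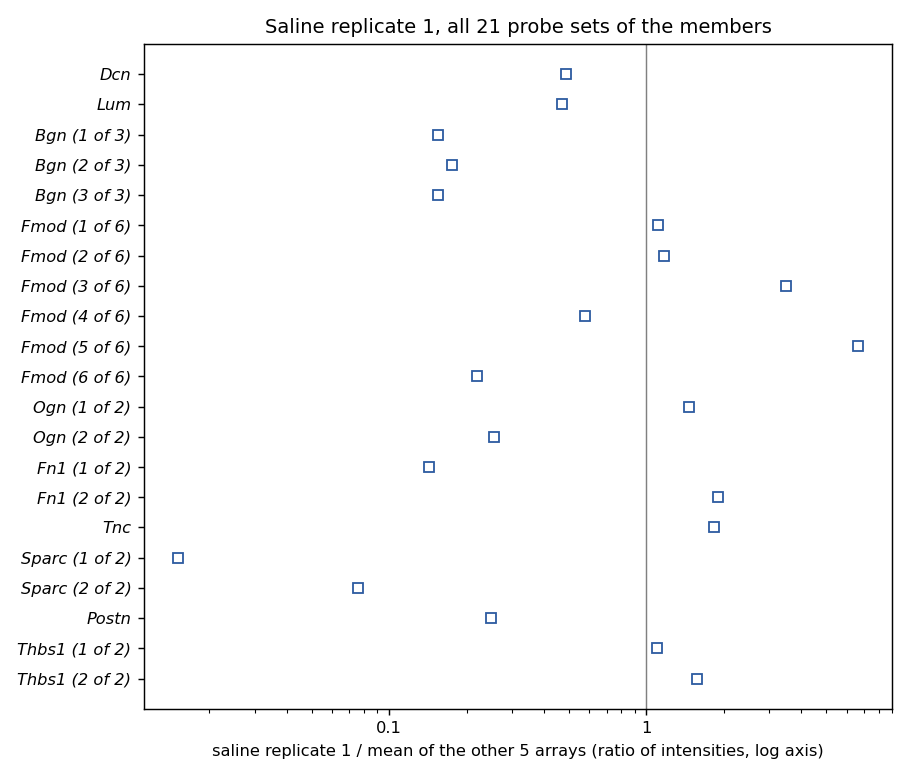
Intensity on saline replicate 1 divided by the mean of the other 5 arrays (log axis) for all 21 probe sets of the members, those of a gene numbered from the highest mean down. Both Sparc probe sets and all 3 of Bgn lie far to the left of 1, whereas the Ogn and Fn1 probe sets fall on both sides of it.

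Promoters were looked up for the genes whose groups did not overlap, a choice made after the values were seen. RefSeq's table (GRCm38.p6) held windows for 6 of the 10 members, with 8 windows in all, among them Tnc, Postn and Sparc. The 250 bases before the start site are shown for these, each from 5′ to 3′ on the gene's strand, at chr4:64046937-64047186 (minus strand) for Tnc, at chr3:54360857-54361106 (plus strand) for Postn and at chr11:55420081-55420330 (minus strand) for Sparc. Capitals mark a match, on either strand, to the TATA box TATAAA or to the SMAD box CAGACA, the element bound by the transcription factors of TGF-beta signalling.
Tnc: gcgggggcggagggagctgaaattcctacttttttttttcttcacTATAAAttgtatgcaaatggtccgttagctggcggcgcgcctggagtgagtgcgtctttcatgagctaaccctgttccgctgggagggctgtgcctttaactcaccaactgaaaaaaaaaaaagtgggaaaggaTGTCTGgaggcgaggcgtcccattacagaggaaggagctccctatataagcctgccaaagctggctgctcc
Postn: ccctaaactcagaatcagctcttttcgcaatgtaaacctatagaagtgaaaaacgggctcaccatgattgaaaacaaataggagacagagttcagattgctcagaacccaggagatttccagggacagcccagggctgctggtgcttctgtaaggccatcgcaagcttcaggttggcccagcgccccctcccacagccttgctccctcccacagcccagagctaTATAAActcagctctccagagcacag
Sparc: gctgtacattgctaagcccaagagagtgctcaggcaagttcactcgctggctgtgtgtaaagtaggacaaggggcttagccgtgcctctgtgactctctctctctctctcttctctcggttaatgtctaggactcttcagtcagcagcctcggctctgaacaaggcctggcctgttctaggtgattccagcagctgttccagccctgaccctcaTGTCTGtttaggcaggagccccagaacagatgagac

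The Postn window shown held TATAAA 26 bases before the start site, and the Tnc window shown held it 205 bases before. Only these exact letters were searched, so the tatataa near the end of the Tnc window is unmarked. The SMAD box began 71 bases before the start in Tnc and 36 in Sparc. Postn and Tnc each had a second window, not shown, for another start site. That of Postn held none of the motifs searched. That of Tnc overlaps the window shown and held the same TATAAA site, 126 bases before its own start, and no SMAD box. Of all 32851 promoter windows of this length, 12.4% held TATAAA and 17.1% held CAGACA. The TEAD element GGAATG, in 12.6% of windows, was found in Ogn. The AP-1 element TGANTCA and the STAT element TTCNNNGAA, in 6.75% and 7.02% of all windows, were in none of the 8 windows of members. These are matches of letters and say nothing of binding.

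The other genes of the same pathways, from lists that were also drawn up with earlier results known, showed no call. Among other small leucine-rich proteins 7 of 11 listed genes had a probe set and 4 were tested, 2 higher and 2 lower, with a median of 0.06 and 0 past the threshold. Of other matricellular proteins 13 were tested, 7 higher and 6 lower, with a median of 0.02. Tnxb, a tenascin that supports collagen fibrils, read 209.3, 228.4 and 259.6 with leptin and 301.7 and 313.8 with saline, a difference of -0.38 ± 0.18 that runs opposite to that of its relative Tnc. Ccn3, a regulator of growth factor signals, was at 0.42 ± 0.20 on its highest-mean probe set and 0.11 on the other. Ccn1, a matricellular ligand of integrins, was named after its values were seen, because its probe sets disagreed. Its highest-mean one was at 0.02 ± 0.15, whereas the other read 322.2, 396.1 and 385.7 with leptin and 215.9 and 198.5 with saline, without overlap, a difference of 0.76 ± 0.17 (limma unadjusted p = 0.00116, adjusted p = 0.410). The receptors of the members, 17 tested, had a median of 0.03, with Tlr4, a receptor for biglycan, at 0.37 ± 0.26 on one probe set and -0.07 on another, and Cd47, the thrombospondin receptor, at 0.13 ± 0.13, -0.11 and -0.09 on 3 of its probe sets. Itga9, an integrin subunit that binds tenascin-C, was likewise named after its values were seen, with -0.12 ± 0.15 on its highest-mean probe set and 0.82 ± 0.24 on another (limma unadjusted p = 0.00534, adjusted p = 0.835). Enzymes that build chondroitin, dermatan and keratan sulfate chains, 12 tested, had a median of 0.07, and Csgalnact1 and Chst2 were at 0.24 ± 0.16 and 0.23 ± 0.16. The other Csgalnact1 probe set was at -0.26.

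Proteases and crosslinkers that act on the members had a median of 0.14, with 7 of 9 tested higher and 0 past the threshold. Mmp2, the gelatinase that also cleaves decorin and fibronectin, had the smallest p of these 5 lists. It read 1632, 1322 and 1409 with leptin and 1062 and 993 with saline, a difference of 0.49 ± 0.14 (limma unadjusted p = 0.00562, adjusted p = 0.835). On a second probe set Mmp2 stood at 1184, 1075 and 1277 with leptin and 661.9 and 667.7 with saline, a difference of 0.80 ± 0.14 (limma unadjusted p = 0.000147, adjusted p = 0.137). The groups did not overlap on either. Pcolce, which promotes procollagen cleavage, was at 0.25 ± 0.14 and 0.23 ± 0.13.

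**Figure D5:**
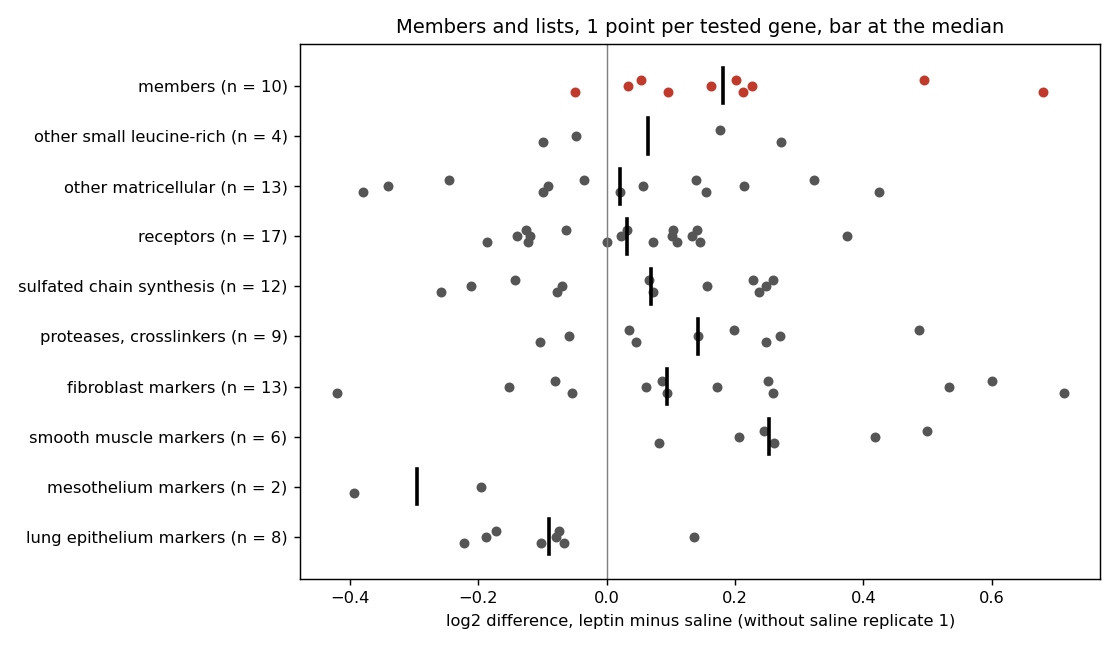
Log2 difference, leptin minus saline without saline replicate 1, of each tested gene by its highest-mean probe set (points) for the members and for lists of related genes and cell type markers, with a bar at each median. The members' median is 0.18, that of smooth muscle markers 0.25 and that of lung epithelium markers -0.09.

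Markers of the cells that could supply this RNA moved with the members in part. In bulk tissue fewer cells of a type and less RNA per cell cannot be told apart. Each marker is counted here by its highest-mean probe set. All 6 smooth muscle markers had positive differences (median 0.25), 5 of them without overlap, which held for 9.92% of all tested probe sets. Des was lowest at 0.08, and its other probe set was at -0.17. The summed intensity of these markers ran from 9144 to 11131 with leptin and from 8201 to 8505 on saline replicates 2 and 3. Of 13 tested fibroblast markers 9 were higher (median 0.09), 4 without overlap, and the sums were 53690 to 55312 with leptin and 47468 to 53127 with saline. The 4 were Col1a1, Col3a1, Col1a2 and Dpt, all genes of secreted matrix proteins. By the highest-mean probe set the other 9 overlapped between groups. Of these, 5 were at 0.06 to 0.25 (Col14a1, Mfap5, Npnt, Pdgfra and Pi16) and 4 at -0.42 to -0.05 (Pdgfrb, Inmt, Col13a1 and Tcf21). A lower-mean probe set each of Col14a1, Mfap5 and Npnt did not overlap, at 0.27, 0.28 and 0.34. The other tested probe sets of Npnt, Pdgfra and Pdgfrb overlapped. Of 8 endothelial markers 6 were higher (median 0.06), with no overlap for Kdr, Emcn and Pecam1 at 0.35, 0.25 and 0.12, and sums of 22049 to 25380 with leptin and 22743 to 23357 with saline. The 6 platelet markers had a median of -0.08, 2 higher and 4 lower, with sums of 3537 to 4243 with leptin and 4016 to 4035 with saline. Of the lower ones, Gp9 and Itga2b did not overlap, at -0.43 and -0.13. Of lung epithelium markers 7 of 8 were lower (median -0.09), with sums of 115402 to 131857 with leptin and 129105 to 131486 with saline. Sftpb and Aqp5 were lower without overlap, at -0.22 and -0.19. Cldn18 was higher, at 0.14, and the other probe sets of Sftpa1 and Cldn18 were at 0.13 and 0.02. Both tested mesothelial markers, Msln and Upk3b, were lower without overlap, at -0.39 and -0.20. The mesothelial sums were 2633 to 2781 with leptin and 3000 to 3339 with saline. Of all tested probe sets 9.66% were lower without overlap. Of the cartilage markers 2 of 8 were tested and the defining Col2a1 read 8.9 to 14.1 with leptin and 6.8 and 7.8 with saline. On saline replicate 1 it read 282.8, and the cartilage sum was 3781, against 493.8 to 657.2 with leptin and 423.6 to 555.1 with saline. All 5 tested macrophage markers were higher (median 0.12), with sums of 6180 to 7775 with leptin and 5322 to 7301 with saline, and all 5 cardiac muscle markers were lower (median -0.05), with sums of 12077 to 16945 with leptin and 14475 to 16563 with saline. No marker of these lists was at 0 on any array, and 0 passed the adjusted threshold. The part of cell makeup in the members' values was not tested.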

How the data were processed

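The deposited values are linear probe set intensities that the authors scaled to one trimmed mean on every array, as found from the values; neither software nor summarisation is stated in the labels. How many arrays there are sets the precision. The 64 control probe sets were removed. To each intensity 22.1 (the table's 10th percentile) was added before log2, so folds of dim probe sets come out too small. A filter kept from testing the 30% of probe sets with the lowest means. limma 3.58.1 (R 4.3.3; eBayes with trend, two-sided) gave p-values, adjusted by Benjamini-Hochberg over all 15838 tested probe sets at 0.05. For the series' rule, whose test is unnamed, a 2-sample test with pooled variance was used. The fit without saline replicate 1 was also run on simulated data whose spread depended on intensity alone, with no pairing of animals. That setting is simpler than these arrays, so the run cannot show how well the p-values hold here.

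Members and lists were chosen with earlier results of these data known. All members are named, and of each pathway list the 2 genes whose highest-mean tested probe set had the smallest p, plus genes said to be chosen otherwise. Symbols come from the platform's annotation; gene order and promoters come from RefSeq (GRCm38.p6). After subtracting group means, arrays that share a replicate number correlated at 0.144, 0.108 and 0.103, all over 0.1, against -0.147 to 0.0491 for others. Saline replicate 1 was included, both in the saline mean and in the 0.144, and values taken around shared means are not independent. Numbers are treated as possible pairs on these values alone. Leptin replicate 1 has no partner once saline replicate 1 is apart. Alternatives changed the normalization, pseudocount (1 or 80.1), filter, trend, block, array weights, threshold and arrays included. Labels give 1 animal per array, so p-values measure the spread between animals as processed.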

Additional observations from a re-analysis of the deposited data

How the results depend on the processing

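No member probe set passed the adjusted threshold under any alternative run, and the smallest adjusted p of a member was 0.552 on the 5 arrays and 0.492 in fits that included saline replicate 1. With 1 more array left out, the log2 difference crossed 0 for Dcn (-0.0032 to 0.20), 2 Bgn probe sets (-0.0043 to 0.086 and -0.10 to 0.16), 2 Fmod probe sets (-0.052 to 0.18 and -0.043 to 0.13), the highest-mean Ogn probe set (-0.21 to 0.11) and the highest-mean Fn1 probe set (-0.025 to 0.43). With all 6 arrays the sign turned for 3 Fmod probe sets (-0.0066, -0.017 and -0.33), the lower-mean Fn1 (-0.12) and 1 Thbs1 probe set (-0.10). The other 270 alternative values of members kept sign and call. The number of members with a higher mean was 9, but 10 when each gene's probe sets were averaged, and 7 to 9 with 1 array left out. Over all probe sets, the 7 calls became 13 at a threshold of 0.10. They became 0 under the replicate block, which pairs arrays by number, under either other normalization, without trend or filter and with a pseudocount of 1 (limma, 685 to 1143 probe sets at an unadjusted p under 0.05), and 0 to 3 with 1 more array left out. On all 6 arrays, array weights gave 8 calls and leaving out saline replicate 1 gave 7, so leaving out arrays gave 0 to 7. The series' rule was met by 78 probe sets, by 50 with the larger pseudocount, 242 without a filter, 49 with the 50% filter, 32 on all 6 arrays and 72 to 145 with 1 array left out. Tnc met it without saline replicate 2, but there the saline group is 1 array and the spread comes from the leptin arrays alone, so this is no test of Tnc. The alternatives for the number of members with a higher mean were chosen after seeing the data. The cause of these shifts was not tested.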

Other observations

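A further probe set is annotated to both Thbs1 and Pald1 and was therefore not counted with the members. Its intensity was 388.4, 781.3 and 802.0 with leptin, against 461.3 and 539.0 with saline. Saline replicate 1, kept apart, gave 33.0. Apart from it, the groups overlapped on it as they did on both Thbs1 probe sets.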
